A study of Mus musculus with 6 samples.

Results

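The BCL2 family of apoptosis regulators was examined in single cells of mouse melanomas. Its 10 members were taken by symbol from the 25215 genes of the expression table: the anti-apoptotic genes Bcl2, Bcl2l1 and Mcl1, the effectors Bax and Bak1, and the BH3-only genes Bid, Bad, Bbc3, Pmaip1 and Bcl2l11. After cells were filtered, 9 of the 10 members were above 0 in more than 5 cells and entered the tests with 11264 genes in all, while Pmaip1, above 0 in 1 cell, did not.

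The tumors were grown in C57BL/6 mice from 50000 melanoma cells injected under the skin of the flanks, and were harvested on day 15. B16 tumors came from the line B16-F10 and were left untreated, B16PD1 tumors came from the same line in mice given 200 μg of anti-PD1 antibody on days 5, 8 and 11, and R499 tumors, also untreated, came from a line derived from a B16 tumor that relapsed after radiation and anti-CTLA4. Each condition had 2 tumors, of separate mice, named here by the numbers in the table (B16_007, B16_008, B16PD1_000, B16PD1_002, R499_015 and R499_016). CD45-negative cells were sorted, which removes most immune cells, and full-length libraries of single cells were made on the ICELL8 platform. B16PD1 differs from B16 by the antibody, R499 differs from B16 by the line, and R499 differs from B16PD1 by both. R499 is 1 derived line, so a difference from B16 is a difference between those lines.

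The table gave TPM, a gene's share of the transcripts of a cell after correction for length, which can be compared between genes, for 602 cells, 100 or 101 per tumor. Retained were 507 cells with more than 1000 genes above 0 and under 10% mitochondrial TPM, 75 to 91 per tumor. TPM keeps no read number, so the number of genes detected stood in for the unknown depth, with medians of 3141 (R499_015) to 3838.5 by tumor. All 7 melanocyte lineage genes listed as markers were detected, in 65.1% (Sox10) to 100% of the retained cells. Of 9 immune markers, 7 were above 0 in any cell, the most common being Fcer1g in 5.52% of cells, and Ptprc, which encodes CD45, was above 0 in 1 cell. The summed TPM of the immune markers was 11.3 and 119 in untreated B16, 18.4 and 115 after anti-PD1, and 4.52 and 5.32 in R499, and its part in the differences below was not tested. Of fibroblast, endothelial and keratinocyte markers, 3 of 5, 1 of 3 and 0 of 2 were above 0 in any cell, in at most 1.18% of cells.

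Proteins of this family decide whether the outer membrane of mitochondria stays closed. BAX and BAK, the effectors, form pores through which cytochrome c leaves and starts the caspases, whereas BCL2, BCL-XL (the product of Bcl2l1) and MCL1 hold the effectors and their activators. BH3-only proteins report damage or missing survival signals by binding the guardians or the effectors, and BCL2 and MCL1 are known survival factors of melanocytes and melanoma. Much of this control acts on the proteins, which were not measured here.

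Effector transcripts were the bulk of the family in these cells. Bax alone held 59.7% of the mean TPM summed over the 10 members, and Bak1 held 13.5%. The BH3-only genes Bad and Bid followed with 10.7% and 7.05%, and the anti-apoptotic Bcl2l1, Mcl1 and Bcl2 with 5.69%, 2.08% and 0.685%. Bcl2l11, Bbc3 and Pmaip1 together were traces, with 0.355%, 0.0998% and 0.0817%. Among the genes tested, the mean TPM of Bax lay at percentile 91.9 and that of Bcl2 at percentile 19.8. By tumor, mean TPM was 112 to 243 for Bax, 24.5 to 66.7 for Bak1, 23.7 to 46.2 for Bad, 15.0 to 29.2 for Bid, 10.4 to 29.2 for Bcl2l1, 3.68 to 7.72 for Mcl1 and 1.65 to 3.03 for Bcl2. In this order the ranges of Bax and Bak1 did not overlap, nor did those of Bcl2l1 and Mcl1 or of Mcl1 and Bcl2. Neighbours from Bak1 through Bad and Bid to Bcl2l1 overlapped, and their order was not separated by the spread between tumors.

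**Figure D1:**
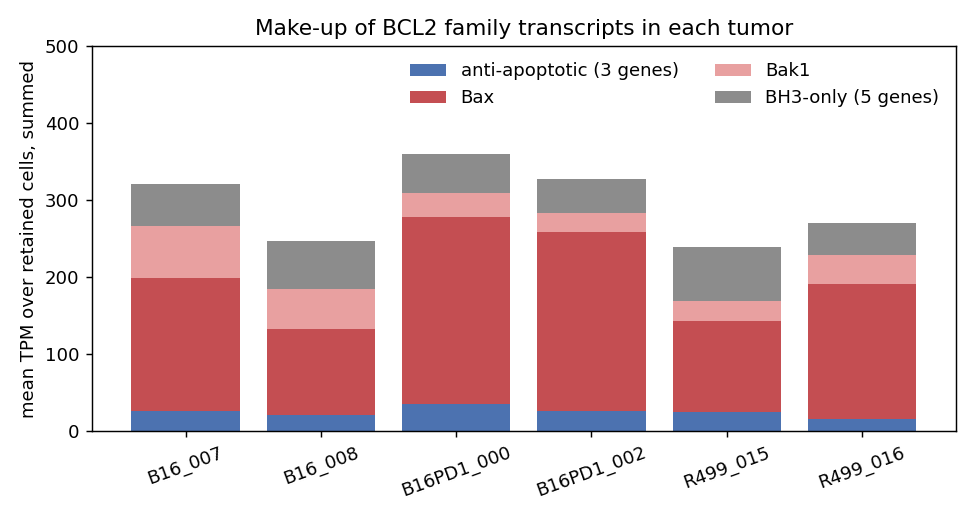
Mean TPM over the retained cells of each tumor (vertical axis, linear from 0), stacked by class: the 3 anti-apoptotic genes, Bax, Bak1 and the 5 BH3-only genes. The bars reach 240 to 359 TPM, and Bax takes 45.2% to 70.7% of each.

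Over all retained cells, the 3 anti-apoptotic members were each found in a minority. Bcl2l1 (ENSMUSG00000007659, chr2:152780668-152831728, minus strand, GRCm38) had TPM above 0 in 148 of 507 cells, 29.2% (95% Wilson interval 25.4% to 33.3%), with a median of 28.2 TPM in the cells that had it. Mcl1 (ENSMUSG00000038612, chr3:95658788-95663176, plus strand), whose protein is short-lived and must be made continuously, was found in 143 cells, 28.2% (24.5% to 32.3%), at a median of 12.7 TPM. Bcl2 (ENSMUSG00000057329, chr1:106538178-106714274, minus strand), the founding member, was found in 93 cells, 18.3% (15.2% to 21.9%), at a median of 7.82 TPM. The intervals cover counting error only, and a gene-level TPM does not separate isoforms, among them the long and short products of Bcl2l1. Shares of cells and medians in the cells with a value both moved with the number of genes detected, as given below. At least 1 of the 3 genes was above 0 in 271 cells, 53.5% (49.1% to 57.8%), and all 3 in 18 cells, 3.55%. In 4 equal bins of cells, from fewest to most genes detected, at least 1 was found in 23.6%, 40.9%, 68.3% and 81.1%. In the last of these bins Mcl1 was above 0 in 55.1% of cells, Bcl2l1 in 45.7% and Bcl2 in 30.7%. In those 271 cells the most abundant anti-apoptotic transcript was Bcl2l1 in 129 cells, Mcl1 in 93 and Bcl2 in 49.

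The effectors were the most widely detected members. Bax (ENSMUSG00000003873, chr7:45461697-45466898, minus strand) was above 0 in 338 of 507 cells, 66.7% (62.5% to 70.6%), at a median of 157 TPM in those cells and a highest value of 4922.22 TPM. Bak1 (ENSMUSG00000057789, chr17:27019810-27029009, minus strand), which encodes the effector that already sits in the mitochondrial membrane, was above 0 in 250 cells, 49.3% (45.0% to 53.7%), at a median of 32.0 TPM. Either effector was found in 409 cells (80.7%) and both in 179 (35.3%). Bax without Bak1 was seen in 159 cells (31.4%), and Bak1 without Bax in 71 (14.0%).

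As Bax and Bak1 carry most of the family's transcripts and the largest differences between conditions, their promoters are shown, each from 250 bases before to 50 bases after the RefSeq start on GRCm38.p6, written 5′ to 3′ on the gene's strand. The Bax window is chr7:45466849-45467148 and the Bak1 window chr17:27028578-27028877, both on the minus strand. Capitals mark the E-box CACGTG, a palindrome that reads the same on both strands and the letters bound by factors such as MITF and MYC.
Bax: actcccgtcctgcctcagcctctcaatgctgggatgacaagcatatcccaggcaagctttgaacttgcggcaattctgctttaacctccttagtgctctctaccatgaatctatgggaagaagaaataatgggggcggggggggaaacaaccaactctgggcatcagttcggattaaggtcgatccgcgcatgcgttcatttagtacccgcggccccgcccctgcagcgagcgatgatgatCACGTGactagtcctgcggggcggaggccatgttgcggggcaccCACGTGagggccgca
Bak1: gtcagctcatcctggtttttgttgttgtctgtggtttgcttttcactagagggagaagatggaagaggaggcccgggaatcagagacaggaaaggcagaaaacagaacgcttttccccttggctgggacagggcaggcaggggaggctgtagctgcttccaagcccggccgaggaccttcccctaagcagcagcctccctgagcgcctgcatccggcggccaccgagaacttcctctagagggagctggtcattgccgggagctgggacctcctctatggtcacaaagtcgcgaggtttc
Bax had the E-box at bases 242 and 286 of its window, the latter after the start, and Bak1 had none. Among the windows of the other members, a Bbc3 window had it at base 187. The same letters occur in 7.15% of the 32851 RefSeq promoter windows of this length. The GC box, with the letters GGGCGG on either strand and no overlap with the E-box, occurred 3 times in the Bax window and 0 times in that of Bak1, and was present in 35.7% of all windows. The core of the M-box (CATGTG), searched on both strands like the rest, was in neither window and in 14.2% of all windows. The box named after its letters CCAAT was in neither and in 37.4% of all, and the TATA box (letters TATAAA) in neither and in 13.6% of all. The 15 windows found for 9 members had a median GC content of 65.7%, against 52.7% over all windows, with 57.3% for Bax and 58.3% for Bak1. These are matches of letters, not measured binding.

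The BH3-only genes fell into a detected pair and a sparse trio. Bid (ENSMUSG00000004446, chr6:120891930-120916853, minus strand), the link from death receptors through caspase-8 to mitochondria, was above 0 in 195 cells, 38.5% (34.3% to 42.8%), at a median of 37.0 TPM. Bad (ENSMUSG00000024959, chr19:6941861-6951899, plus strand), which binds BCL2 and BCL-XL when survival kinases do not phosphorylate it, was above 0 in 165 cells, 32.5% (28.6% to 36.7%), at a median of 63.9 TPM. The other three are genes that stress induces at the transcript level. Bcl2l11 (ENSMUSG00000027381, chr2:128126038-128162547, plus strand), which encodes BIM, was above 0 in 28 cells, 5.52% (3.85% to 7.87%). Bbc3 (ENSMUSG00000002083, chr7:16308393-16318205, plus strand), the p53 target PUMA, was above 0 in 10 cells, 1.97% (1.07% to 3.59%). Pmaip1 (ENSMUSG00000024521), the p53 target NOXA, was above 0 in 1 cell of B16_007, at 122.37 TPM. At least 1 BH3-only gene was found in 282 cells, 55.6%. At this unknown depth a value of 0 does not show that a cell lacked the transcript.

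**Figure D2:**
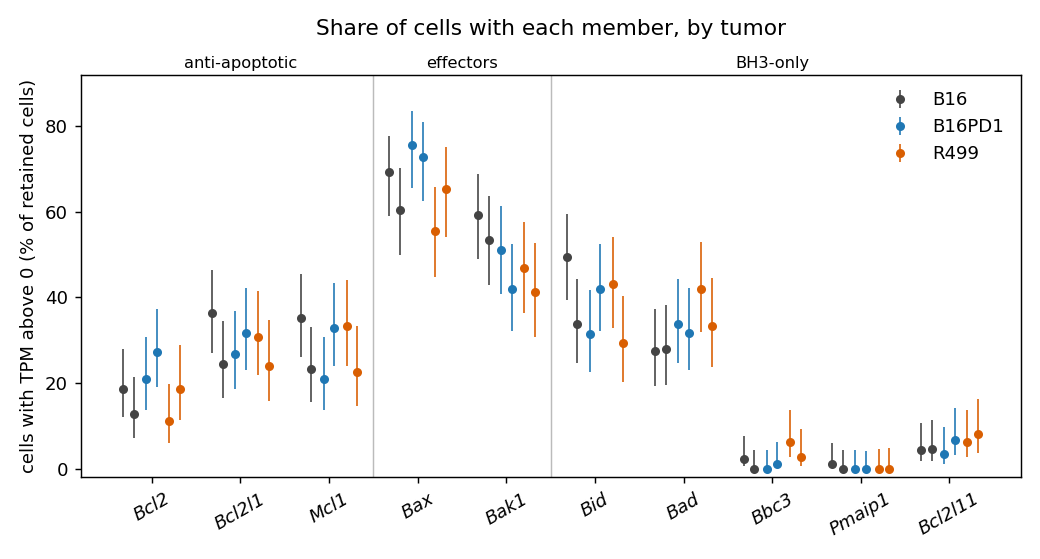
Percent of retained cells with TPM above 0 (vertical axis) for each member and tumor, with 95% Wilson intervals that cover counting error only; colors are the 3 conditions. Bax lies between 55.6% and 75.6% and Bak1 between 41.3% and 59.3%, while Bbc3, Pmaip1 and Bcl2l11 stay at or below 8.00%.

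Detection of members followed the number of genes detected in a cell. In 4 equal bins of the cells by that number (1007 to 2625, 2634 to 3547, 3551 to 4620 and 4625 to 6816 genes), Bax was above 0 in 36.2%, 55.9%, 81.7% and 92.9% of cells, whereas its mean TPM was 198, 184, 145 and 178. Mcl1 was above 0 in 7.87%, 15.7%, 34.1% and 55.1% of cells. The share of cells with Bax thus moved with depth over a wide range while its mean TPM did not follow it. Medians over only the cells with a value fell with depth. From the lowest to the highest bin they were 331, 186, 124 and 144 TPM for Bax and 127, 29.9, 30.5 and 17.4 TPM for Bcl2l1. The medians of Bcl2, Mcl1, Bak1, Bid and Bad were also lower in the highest bin than in the lowest. Cells with neither effector numbered 63 of 127 in the lowest bin and 0 of 127 in the highest. An effector with no anti-apoptotic transcript was seen in 170 of 507 cells (33.5%), but in 37.8%, 48.8%, 28.6% and 18.9% of cells from the lowest to the highest bin. The reverse, an anti-apoptotic transcript with no effector, was seen in 32 cells (6.31%), and in 0 of 127 in the highest bin. No member was above 0 in 40 cells (7.89%), and a cell had a median of 2 members and at most 8.

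**Figure D3:**
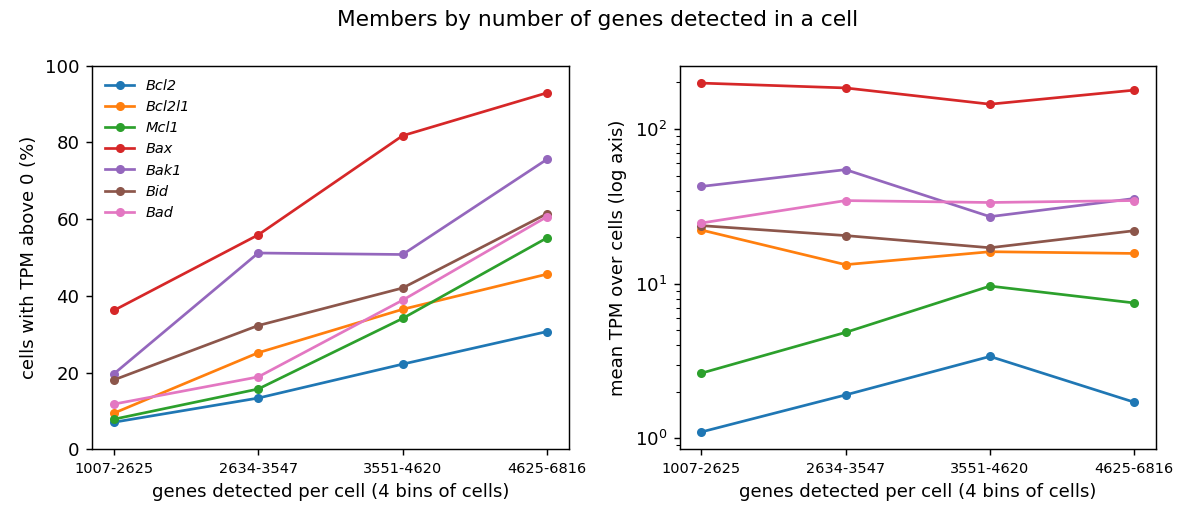
Left, percent of cells with TPM above 0, and right, mean TPM on a log axis, for the 7 members found in at least 10% of cells, against the bin of genes detected per cell (4 bins of equal size). The shares climb from the lowest to the highest bin, apart from Bak1 between the middle pair, and the mean TPM of Bax stays between 145 and 198.

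The first comparison asked how the family differed between B16 tumors with and without anti-PD1. Levels were averages of log2(TPM + 1) over the cells of each tumor. A level moves with the share of cells above 0 and with the amount in them. A difference in level can thus lie above or below the log2 fold of mean TPM. On log2 of averaged TPM (plus 1), B16PD1 against B16 gave 0.76 for Bax and -1.09 for Bak1, against 0.91 and -0.87 in level. Levels were compared with limma with Benjamini-Hochberg adjustment over all genes tested, at a threshold of 0.05. The largest differences were those of the effectors, in opposite directions. Of the 9 members tested, 0 passed the threshold, as did 0% of all genes. At an unadjusted p under 0.05 there were 2 members, Bax and Bak1, where 4.69% of all genes were. The 2 tumors of 1 condition lay above both of the other for 2 members (Bcl2 and Bax) and below for 1 (Bak1), and groups did not overlap for 33.3% of all genes.

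Bax had levels of 5.05 and 4.28 in untreated B16, 5.68 and 5.47 after anti-PD1, and 3.94 and 4.77 in R499. Both B16PD1 tumors lay above all 4 others, and B16 and R499 overlapped. Its level was 0.91 higher in B16PD1 than in B16 (SE 0.38, 95% interval 0.11 to 1.71 unadjusted, limma adjusted p = 0.989). The corresponding mean TPM was 174 and 112 in untreated B16, 243 and 231 after anti-PD1, and 118 and 176 in R499, so that on the TPM scale B16_007 and R499_016 stood close together. With 4 equal bins of cells by genes detected weighted alike in every tumor, the difference in level was 0.70. It was 0.41 when each tumor's average of genes detected entered as a covariate, and 0.53 without B16_008.

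Bak1 went the other way. Its levels were 3.27 and 3.01 in untreated B16, 2.44 and 2.09 after anti-PD1, and 2.19 and 2.19 in R499. Both B16 tumors were above the 4 others, and the B16PD1 and R499 tumors overlapped. The difference between B16PD1 and B16 was -0.87 (SE 0.31, 95% interval -1.53 to -0.21 unadjusted, limma adjusted p = 0.989). Mean TPM was 66.7 and 52.5 in untreated B16, 30.3 and 24.5 after anti-PD1, and 26.5 and 36.9 in R499, again with both B16 tumors on top. The share of cells with Bak1 was 59.3% and 53.5% in untreated B16, 51.2% and 42.0% after anti-PD1, and 46.9% and 41.3% in R499, without overlap between B16 and the others.

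In level, the anti-apoptotic genes differed less than the effectors between B16PD1 and B16. In the share of cells above 0, Bcl2 was 8.37 percentage points higher in B16PD1, near the 9.31 of Bax (limma adjusted p = 0.920 for both). Bcl2l1 and Mcl1 differed by -1.06 and -2.27 points. Bcl2 had levels of 0.59 and 0.43 in untreated B16, 0.62 and 0.82 after anti-PD1, and 0.35 and 0.56 in R499. The B16PD1 tumors were the highest, by 0.21 over B16 (SE 0.16, limma adjusted p = 0.989), although B16_007 lay only just below them. Without B16PD1_002 this difference was 0.11, and without B16_008 it was 0.13. Bcl2l1 had levels of 1.71 and 1.19 in untreated B16, 1.34 and 1.55 after anti-PD1, and 1.47 and 1.17 in R499. All 3 conditions overlapped, and B16PD1 and B16 differed by -0.0051 (SE 0.29, 95% interval -0.61 to 0.60, limma adjusted p = 0.998). In mean TPM Bcl2l1 was highest in B16PD1_000, at 29.2, where 1 cell had 803.42 TPM. Mcl1 had levels of 1.41 and 0.95 in untreated B16, 0.79 and 1.34 after anti-PD1, and 1.22 and 0.78 in R499, with more spread within each condition than between them. Its difference between B16PD1 and B16 was -0.12 (SE 0.27, 95% interval -0.69 to 0.46, limma adjusted p = 0.993).

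**Figure D4:**
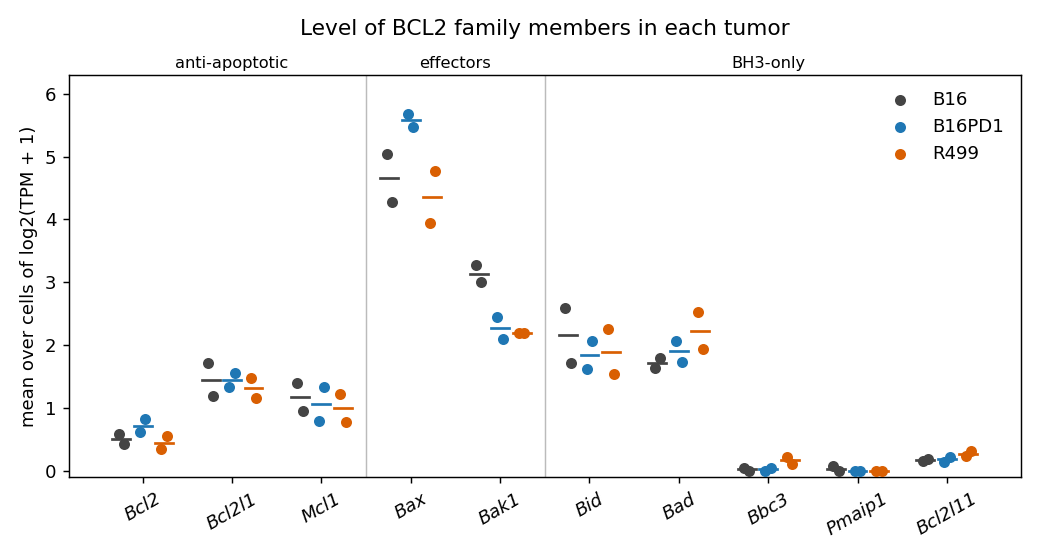
Level of each member in each tumor (points; mean over cells of log2(TPM + 1), vertical axis) and the mean of each condition (bars, n = 2 tumors). The B16PD1 tumors lie above the others for Bax and the B16 tumors lie above the others for Bak1, whereas the 3 conditions overlap for Bcl2l1, Mcl1 and Bid.

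Of the BH3-only genes, Bid had levels of 2.59 and 1.72 in untreated B16, 1.63 and 2.07 after anti-PD1, and 2.26 and 1.54 in R499. The conditions overlapped, and B16PD1 was -0.31 from B16 (SE 0.36, limma adjusted p = 0.989). Bad had levels of 1.64 and 1.79 in untreated B16, 2.07 and 1.74 after anti-PD1, and 2.53 and 1.94 in R499. Here the R499 tumors were above both B16 tumors, and the B16PD1 tumors overlapped with each. Bad was 0.19 higher in B16PD1 than in B16 (SE 0.31, limma adjusted p = 0.990). Bbc3 was found in 2 and 0 cells of untreated B16, 0 and 1 after anti-PD1, and 5 and 2 of R499, where 0 of 86 cells allows up to 3.49% of cells with a value above 0, by counting error alone (3 of 86 cells). Bcl2l11 was found in 4 and 4, 3 and 6, and 5 and 6 cells in the same order. Few cells carried either gene in any tumor, and in R499 against B16 their limma adjusted p was 0.496 and 0.727.

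The second comparison set the R499 line against B16, with the same B16 tumors as in the first, so the 2 sets of differences are not independent. No member passed the threshold here either, where 7 genes (0.0621%) did, and 1 member, Bak1, had an unadjusted p under 0.05, as did 10.5% of all genes. Without overlap, 3 members were higher in R499 (Bad, Bbc3 and Bcl2l11) and 1 was lower (Bak1), beside 41.7% of all genes in either direction. Bak1 was lower by a difference of -0.95 (SE 0.31, 95% interval -1.61 to -0.29 unadjusted, limma adjusted p = 0.349). Bad was 0.52 higher (SE 0.31, 95% interval -0.14 to 1.18, limma adjusted p = 0.578), but its mean TPM, 24.1 and 46.2 in B16 and 39.0 and 23.7 in R499, overlapped. Without R499_015 the difference of Bad was 0.23, and without R499_016 it was 0.81. Bax differed by -0.31 (SE 0.38, limma adjusted p = 0.805), Bid by -0.26 (adjusted p = 0.835), Mcl1 by -0.18 (adjusted p = 0.852), Bcl2l1 by -0.13 (adjusted p = 0.910) and Bcl2 by -0.062 (adjusted p = 0.924), each with overlapping tumors. The median difference over the 9 members was -0.13, and over all genes tested -0.073. In B16PD1 against B16 these medians were -0.00084 and 0.012.

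Between R499 and B16PD1, where line and treatment both differ, the widest gap was again in Bax. It was lower in R499 by a difference of -1.22 (SE 0.38, 95% interval -2.03 to -0.42 unadjusted, limma adjusted p = 0.315). With the 4 bins of cells by genes detected weighted alike in every tumor, it was -0.87. With each tumor's average of genes detected as a covariate, the direction turned, to 0.13, as it did in only 1 of 18 alternatives. R499_015 had both the lowest Bax and the fewest genes detected, and the part of depth was not tested. Without R499_015 the difference was -0.81. None of the 9 members passed the threshold, where 8 genes (0.071%) did, and 1 member, Bax, had an unadjusted p under 0.05, as did 10.2% of all genes. Tumors were apart for 4 members, Bax and Bcl2 lower and Bbc3 and Bcl2l11 higher in R499, as they were for 41.5% of all genes.

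**Figure D5:**
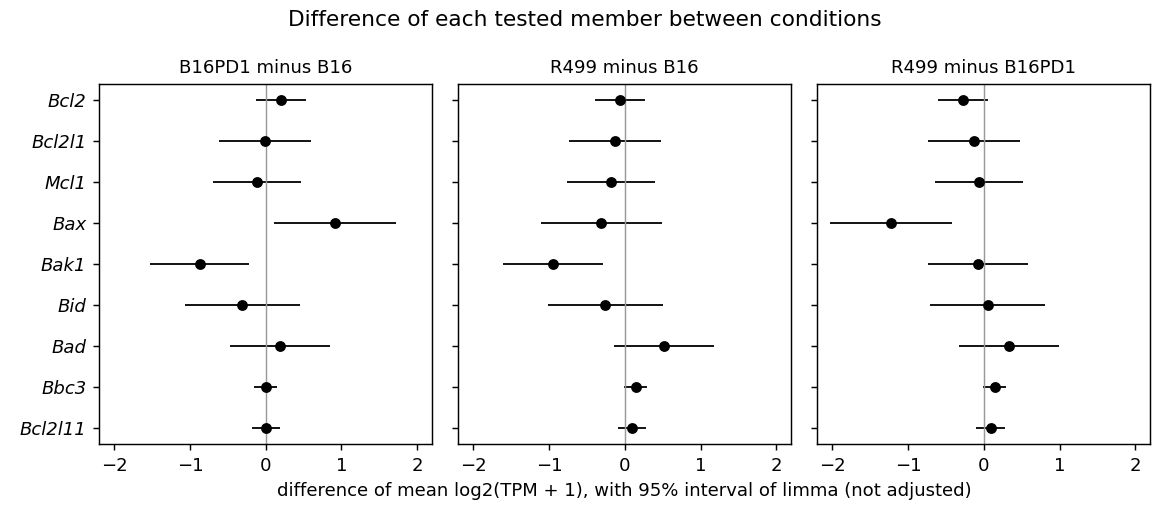
Difference of each tested member between conditions in mean log2(TPM + 1) (horizontal axis), with the unadjusted 95% interval of limma over 2 tumors a condition. The interval excludes 0 for Bax and Bak1 in B16PD1 minus B16, for Bak1 in R499 minus B16 and for Bax in R499 minus B16PD1, and no member passed after adjustment.

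Shares of cells gave the same members at the ends. In the limma test of the percent of cells above 0, 0 of 9 members and 0% of all genes passed in each of the 3 comparisons. For B16PD1 against B16, 0 members had an unadjusted p under 0.05 (4.99% of all genes did), and tumors did not overlap for 4 members, Bcl2, Bax and Bad higher and Bak1 lower, against 31.5% of all genes. For R499 against B16, 0 members had an unadjusted p under 0.05 (9.93% of all genes did), and Bad, Bbc3 and Bcl2l11 were higher and Bak1 lower without overlap, against 40.7%. For R499 against B16PD1, 1 member, Bax, had an unadjusted p under 0.05 (12.6% of all genes did), with a difference of -13.7 percentage points (limma adjusted p = 0.358). There, Bbc3 was higher and Bax and Bcl2 lower without overlap, against 45.4% of all genes.

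In the balance of the classes over all members, the means of the conditions differed less than the tumors of 1 condition did. It was taken as the level averaged over the 3 anti-apoptotic members minus that averaged over the 7 pro-apoptotic members, and it was -0.65 ± 0.082 in untreated B16, -0.61 ± 0.26 after anti-PD1 and -0.67 ± 0.075 in R499 (SD, n = 2). By tumor it was -0.60 and -0.71, -0.79 and -0.43, and -0.61 and -0.72, so the widest gap lay between the pair of B16PD1 tumors. Against the effectors alone it was -2.92 and -2.79 in untreated B16, -3.15 and -2.54 after anti-PD1, and -2.05 and -2.65 in R499. On that measure R499 lay above B16 without overlap, and B16PD1 overlapped with both. The effectors alone averaged 3.90 ± 0.36, 3.92 ± 0.20 and 3.27 ± 0.29 on this log2 scale, and the anti-apoptotic genes 1.05 ± 0.27, 1.08 ± 0.23 and 0.92 ± 0.13. Near-equal effector averages in B16 and B16PD1 were made of unequal parts, since Bax was higher and Bak1 lower in B16PD1. On the TPM scale the pro-apoptotic genes exceeded the anti-apoptotic ones 11.6- and 10.9-fold in untreated B16, 9.18- and 11.3-fold after anti-PD1, and 8.74- and 16.2-fold in R499. No test was made of these scores.

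Within the effector pair, the make-up of the 3 conditions did not overlap on the TPM scale. The ratio of the mean TPM of Bax to that of Bak1 was 2.60 and 2.13 in untreated B16, 8.02 and 9.43 after anti-PD1, and 4.47 and 4.76 in R499. This ratio was chosen after the values were seen and has no test. It partly rests on single cells: without the highest cell of each gene in each tumor it was 2.47 and 2.25, 8.87 and 8.30, and 6.55 and 6.22, in the same order of conditions. As a difference of levels, Bax minus Bak1 was 1.78 and 1.27 in untreated B16, 3.24 and 3.38 after anti-PD1, and 1.75 and 2.58 in R499, and there B16 and R499 overlapped.

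Genes upstream and downstream of the family were described from 6 lists, in none of which a gene passed the threshold in any comparison. In the remainder of the BCL2 family 7 of 14 genes could be tested, and the most abundant were the mitophagy receptors Bnip3 (mean 1014 TPM) and Bnip3l (473 TPM). Of the genes not tested, Bcl2l10 and Bcl2l14 were at 0 in all retained cells, and Bcl2a1a, Bcl2a1b and Bcl2a1d, close copies of one another whose reads are hard to assign, were above 0 in 1 cell each. Downstream, all 14 apoptosome and caspase genes were tested. Cycs, which encodes cytochrome c, was at 859 TPM and the survivin gene Birc5 at 198 TPM, and the pore genes Vdac1 and Vdac3 were at 481 and 378 TPM, with all 3 Vdac genes tested.

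Upstream, 6 of 7 death receptor genes were tested, with Casp8 (73.5 TPM) and its inhibitor Cflar (65.2 TPM) the most abundant, and Fas was above 0 in 2 cells. Of 7 transcription factors that act on members, Atf4 (596 TPM) and its target Ddit3 (285 TPM), factors of the integrated stress response, led. Of 3 genes that govern turnover of MCL1 protein, the deubiquitinase Usp9x was at 16.4 TPM and the ligase Huwe1 at 8.24 TPM. The median difference of a list lay between -0.10 and 0.070 in B16PD1 against B16, between -0.21 and 0.24 in R499 against B16, and between -0.26 and 0.16 in R499 against B16PD1, on either side of the medians of all genes (0.012, -0.073 and -0.089). At an unadjusted p under 0.05 there were 1, 5 and 4 of the 40 tested genes of the 6 lists (2.5%, 12.5% and 10%) in B16PD1 against B16, R499 against B16 and R499 against B16PD1, close to the 4.69%, 10.5% and 10.2% of all genes. The 1 in the first comparison, named after its values were seen, was Mitf, the melanocyte master regulator. It had levels of 6.76 and 6.72 in untreated B16, 5.95 and 6.06 after anti-PD1, and 6.13 and 6.23 in R499. Both B16 tumors stood above the others, by a difference of B16PD1 from B16 of -0.73 (SE 0.31, limma adjusted p = 0.989). Trp53, which encodes p53 and was also named after its values were seen, had overlapping tumors in R499 and B16 at levels of 4.95 and 5.98 against 5.65 and 5.50, and lay at 6.37 and 5.90 in B16PD1 (difference from B16 0.56, SE 0.37, limma adjusted p = 0.989).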

How the data were processed

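Single cells of 6 melanomas, 2 per condition, were profiled by full-length RNA sequencing. The authors aligned reads with STAR in 2-pass mode and deposited TPM estimated with RSEM, both at default settings, and the submitters' processing notes name the build mm10. Versions and annotation are not given in the sources used here. The study's minimum of mapped reads could not be applied to TPM, and doublets were not called. Cells with more than 1000 genes and under 10% mitochondrial TPM were retained, and genes above 0 in more than 5 of them were tested. A tumor's value was the mean of log2(TPM + 1), pseudocount 1, or the percent of cells above 0. The tumor was the replicate. All 6 tumors were fitted together with limma 3.58.1 in R 4.3.3 (eBayes with a trend, two-sided), after the code was tested on simulated data. Shares had 95% Wilson intervals, computed in Python 3.11.15 with numpy 2.4.6, pandas 2.3.3 and scipy 1.17.1, and plots used matplotlib 3.10.9. Depth was unknown, which leaves the precision of a single cell's value unstated. Positions and promoters came from annotations of GRCm38.

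Members and gene lists were chosen with earlier results of these data known. Named were the members, the 2 most abundant genes of each list with any past the threshold, and, for members in at least 20% of cells, the 3 genes of highest correlation over cells. Genes of the lists outside this rule (Trp53, Mitf, Fas, Bcl2l10, Bcl2l14, the Bcl2a1 copies and those at an unadjusted p under 0.05) were named after their values were seen, and 1 gene that the rule names is not reported here. The comparison of cells by mitochondrial share and the ratio of Bax to Bak1 were chosen after the data were seen. Alternatives changed the pseudocount (0.1, 10), the filters on cells and genes, the scale, the weighting of cells, the trend, a covariate and the tumors included.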

Additional observations from a re-analysis of the deposited data

How the results depend on the processing

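The number of members past the threshold stayed at 0 in all 3 comparisons under all 18 alternatives for level and all 12 for share, with lowest adjusted p of 0.803, 0.212 and 0.206 for level and 0.758, 0.400 and 0.266 for share (B16PD1 against B16, R499 against B16, R499 against B16PD1). Bak1 kept its direction throughout, from -1.20 to -0.53 in B16PD1 against B16 and from -1.35 to -0.55 in R499 against B16, as did Bax in B16PD1 against B16, from 0.41 to 1.30. Bbc3 and Bcl2l11 were not tested under the filter of 10% of cells. Other directions turned, the largest being that of Bax in R499 against B16PD1 (-1.22). On the log2 scale of averaged TPM (plus 1), Bcl2l1 was 0.63 and Bad -0.22 in B16PD1 against B16, and Bax was 0.050, Bid 0.039 and Bad -0.13 in R499 against B16. With the average of genes detected as covariate, Bcl2 was 0.10, Bcl2l1 0.11, Bax 0.54 and Bid 0.064 in R499 against B16, and Bax 0.13 in R499 against B16PD1. A pseudocount of 10 gave Bcl2l1 0.024 in B16PD1 against B16, and centering each cell, which moved all differences of R499 against B16 by 0.10, against B16PD1 by 0.14 and of B16PD1 against B16 by -0.032, gave Bcl2 0.041 in R499 against B16. The cause was not tested. Leaving out each tumor in turn gave, in B16PD1 against B16, -0.27 to 0.26 for Bcl2l1, -0.39 to 0.16 for Mcl1, -0.74 to 0.12 for Bid, 0.11 to 0.31 for Bcl2, 0.53 to 1.30 for Bax and 0.024 to 0.36 for Bad, and in R499 against B16, -0.17 to 0.043 for Bcl2, -0.39 to 0.13 for Bcl2l1, -0.41 to 0.045 for Mcl1, -0.72 to 0.10 for Bax, -0.69 to 0.18 for Bid and 0.23 to 0.81 for Bad; Bax in R499 against B16PD1 was -1.64 to -0.81. A lone tumor was then assumed to vary like the others. The balance was -0.46 in B16 and -0.44 in R499 with a pseudocount of 10; with only Bax and Bak1 as pro-apoptotic genes it was -2.85 in untreated B16, -2.85 after anti-PD1 and -2.35 in R499, and as a log2 ratio of summed TPM -3.49, -3.35 and -3.57. Without the highest cell of each gene, an alternative chosen after seeing the data, the mean ratio of Bax to Bak1 was 6.38 in R499, against 4.62 with all cells, and 2.36 in B16 and 8.58 in B16PD1, against 2.36 and 8.73. No paired analysis was possible because the labels pair no tumor of a condition with a tumor of another. The columns also carry tumor numbers that are not the replicate numbers of the sample titles. With 2 tumors a condition and unknown depth, differences of the size seen here were not separated from the spread between tumors.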

Other observations

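Cells left out for their mitochondrial share differed from retained cells in the same direction in every tumor for 3 members. The share of all genes that did so was not computed, so this count is not shown to be particular to the members. These 71 cells, 5 to 21 per tumor, had more than 1000 genes and at least 10% mitochondrial TPM, with a median of 3957 genes against 3547 in retained cells. Mcl1 was above 0 in 45.1% of them (32 of 71, 95% Wilson interval 34.0% to 56.6%), and the mean over tumors was 46.0% against 28.1% in retained cells, higher in 6 of 6 tumors. Bax was above 0 in 78.9% (68.0% to 86.8%), with a mean over tumors of 84.0% against 66.5%, higher in 6 of 6 tumors, although its mean of 98.1 TPM was below the 176 TPM of retained cells. Bcl2l1 went the other way, at 15.5% (8.88% to 25.7%), with a mean over tumors of 15.2% against 29.0%, lower in 6 of 6 tumors. Each of the 3 had p = 0.03125 in an exact two-sided permutation test over the 6 tumors, the smallest it can give, and an adjusted p of 0.104 over 10 members, so none passed the correction. Bcl2l11 was above 0 in 11.3% of these cells, higher in 5 of 6 tumors (exact permutation p = 0.0938, adjusted p = 0.234). In 1 of the 3 cells with Bbc3 its value was 476.63 TPM. The share of mitochondrial TPM enters the total of a cell, and the left-out cells had more genes detected. The part of either in these values was not tested.

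Members had low correlations from cell to cell, where the many values of 0 limit how high a correlation can be. A low value therefore does not show that members vary independently. Over 507 cells, after the tumor mean and the linear effect of the number of genes detected were subtracted, the 15 pairs of the 6 members found in at least 20% of cells had Pearson r from -0.12 (Bax and Bak1) to 0.089 (Bid and Bad), with a median of -0.0015. Cells share tumors and TPM is a share of a total, so these values are a description.

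The genes of highest r with each member on the same measure, picked from 6168 genes, had r of 0.15 to 0.20. They were Scarb2, Eaf1 and Prcp for Bcl2l1, Pim2, Zscan22 and Paip1 for Mcl1, Tcta and Rps21 for Bax, Hsp90ab1, Serpinh1 and Sec61a1 for Bak1, Pde12, Commd10 and Prepl for Bid, and Cln8, Rps25-ps1 and Mrps36 for Bad. A highest value of so many is raised by the picking itself, and the r that unrelated genes would reach was not tested.

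Other genes of the pathway with an unadjusted p under 0.05, named after their values were seen, were Tnfrsf1a (-0.99), Birc6 (-0.66), Atf4 (-0.75), Hif1a (-0.79) and Usp9x (-0.66) in R499 against B16, and Tnfrsf1a (-0.83), Atf4 (-0.77), Hif1a (-0.89) and Huwe1 (-0.52) in R499 against B16PD1, as differences in mean log2(TPM + 1) with limma adjusted p from 0.349 to 0.458. These were 5 and 4 of 40 tested list genes (12.5% and 10%), close to the 10.5% and 10.2% of all genes at the same limit. All were lower in R499, and the median difference of all genes was -0.073 and -0.089 in these comparisons.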
